A study of Mus musculus with 16 samples.

Results

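The genes described here are 9 enzymes of the mitochondrial citric acid cycle: Ogdhl, its paralog Ogdh, Dlst, Dld, Cs, Idh3a, Suclg1, Fh1 and Mdh2. They were taken by symbol from the expression matrix and make up 9 of its 12321 genes. Ogdhl was selected on its fold change between hairpins in earlier results of the same matrix, so its hairpin comparisons are given as a description with no test. The other 8 were chosen as enzymes around it, with earlier results of these data known. All 9 passed the filter on low values that left 12320 genes to test.

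RNA of the mouse lung adenocarcinoma line LKR10 was sequenced in 16 libraries, 4 in each of 4 groups. Cells carried a lentiviral short hairpin against Ankrd35 and grew suspended in 0.5% methylcellulose (3D shAnkrd35), carried a hairpin against GFP in the same gel (3D shGFP), or carried either hairpin as an attached monolayer (2D shAnkrd35 and 2D shGFP). All cells had been infected with a pLKO lentivirus and kept in 4 µg/ml puromycin for 48 h, and were harvested a further 96 h later. The shGFP cells were thus the control for each growth type, and the labels name neither the hairpin sequences nor the number of hairpins used. Nothing in the labels says that the replicates are separate cultures, and the spread behind the p-values may therefore be technical. In RNA of whole cultures, fewer cells that make a transcript and less transcript per cell cannot be told apart.

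The citric acid cycle takes acetyl groups into citrate and oxidises them to carbon dioxide, which passes electrons to NAD+ and to ubiquinone. A rate-controlling step is the oxoglutarate dehydrogenase complex, which turns 2-oxoglutarate into succinyl-CoA with subunits called E1, E2 and E3. Ogdh encodes the usual E1, the thiamine-dependent subunit that removes carbon dioxide, and Ogdhl encodes another E1 with a narrower distribution, known best from brain. Dlst encodes E2 and Dld encodes E3, which also serves the pyruvate and branched-chain dehydrogenases.

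Libraries held 13.82 to 28.72 M reads in genes. Ankrd35, the target of the hairpin, had 9 to 12 reads in 3D shAnkrd35 against 14 to 17 in 3D shGFP, and 1 to 7 reads in 2D shAnkrd35 against 2 to 7 in 2D shGFP. In CPM (reads of a gene scaled to a common library size), the ranges of Ankrd35 overlapped in both growth types, so it does not settle the labels, and the groups are named as labelled throughout. Of 7 epithelial markers 5 were measured, and their summed level was 6598 to 7175 CPM in 3D shAnkrd35 against 5994 to 6176 CPM in 3D shGFP, and 7026 to 8553 CPM in 2D shAnkrd35 against 5261 to 5760 CPM in 2D shGFP. Among them Krt8, Krt18 and Krt19 were higher with shAnkrd35 in both growth types (limma adjusted p 1.83e-08 to 0.0382). Epcam was lower in 3D (log2 fold change -1.01, limma adjusted p = 0.0182), at means of 1.24 CPM with shAnkrd35 and 2.58 CPM with shGFP. Cdh1 was lower in 2D (-0.20, adjusted p = 0.00104). Of 5 lung epithelial markers only Foxa2 was measured, at 9.53 to 16.2 CPM, and Nkx2-1, Sftpc, Sftpb and Scgb1a1 were not analysed here. Among the 2D shAnkrd35 libraries replicate 1 was the most distant: its genes differed from the mean of the other 3 libraries by a median of 0.191 on the log2 scale, against 0.104 to 0.130 for those 3. Fold changes also followed the GC content of transcripts, with Spearman's rho across 12217 genes of 0.40 for shAnkrd35 against shGFP in 2D, 0.22 in 3D, -0.47 for 3D against 2D with shAnkrd35 and -0.34 with shGFP. With transcript length, rho in the same order was -0.35, 0.05, 0.25 and -0.02. For the hairpin fold in 3D minus that in 2D, rho was -0.29 with GC content and 0.41 with length. Some differences that passed the test were lost or moved by over 1.5 times without that library or after removal of a trend with transcript length and GC content. For members and list genes these are given with both values, except where stated. Cell type markers are given without these alternatives.

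The start regions of the E1 paralogs are shown because the comparison of these paralogs leads the results. Both are RefSeq windows in the GRCm38.p6 build on the plus strand, written 5′ to 3′ from 250 bases before the start site to 10 after it, at chr14:32321769-32322028 for Ogdhl and chr11:6291347-6291606 for Ogdh. Ogdh has 6 RefSeq windows and the most upstream is printed. Capitals mark an E-box (CACGTG) or a cyclic AMP response element (CRE, TGACGTCA), searched on both strands.
Ogdhl: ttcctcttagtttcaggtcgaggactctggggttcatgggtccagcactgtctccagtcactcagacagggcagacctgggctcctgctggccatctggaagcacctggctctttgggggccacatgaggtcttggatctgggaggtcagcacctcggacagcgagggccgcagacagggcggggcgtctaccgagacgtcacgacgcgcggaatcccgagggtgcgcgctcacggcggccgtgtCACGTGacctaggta
Ogdh: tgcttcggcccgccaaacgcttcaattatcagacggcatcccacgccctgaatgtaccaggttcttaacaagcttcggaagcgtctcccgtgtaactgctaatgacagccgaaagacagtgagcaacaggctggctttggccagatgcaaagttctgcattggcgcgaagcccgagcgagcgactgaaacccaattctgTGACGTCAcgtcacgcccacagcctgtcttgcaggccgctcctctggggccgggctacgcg
The Ogdhl window held 1 E-box, which begins 5 bases before the start site, and no CRE. The Ogdh window held 1 CRE, 51 bases before the start site, and no E-box. Among 32851 mouse windows reaching 50 bases past the start, 7.15% held the E-box and 1.79% the CRE. Windows were found for 8 of the 9 members, and Idh3a is only named. Mdh2 had a CRE 127 bases before its start, and Dld had the NRF1 motif (4.60% of windows) 39 bases after it. CCAAT, in 37.4% of windows, stood in 2 places each in Ogdh, Dld, Cs and Fh1. AAGGTCA (4.72% of windows), TTGCATCA (0.895%) and CAAAGTCCA (0.475%) were in none of the 8. A match is a description of letters in the window and not a bound site.

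Ogdhl (chromosome 14, 32322019 to 32348151, plus strand, 26 exonic blocks in GENCODE M21 on mm10) differed with both the hairpin and the growth type. Its level was 20.2, 15.7, 15.2 and 15.6 CPM in replicates 1 to 4 of 3D shAnkrd35, against 2.93, 4.01, 3.47 and 4.03 CPM in 3D shGFP. In monolayers it was 37.2, 35.0, 31.1 and 28.2 CPM in 2D shAnkrd35, against 7.12, 5.92, 6.71 and 6.18 CPM in 2D shGFP. The 4 groups occupied separate ranges, in the order 2D shAnkrd35, 3D shAnkrd35, 2D shGFP and 3D shGFP, and every library labelled shAnkrd35 stood above every shGFP library. Behind these levels lay 217 to 496 reads in 3D shAnkrd35, 72 to 120 in 3D shGFP, 570 to 809 in 2D shAnkrd35 and 113 to 177 in 2D shGFP.

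As a description, the log2 fold change of Ogdhl between hairpins was 2.18 ± 0.12 (SE) in 3D, from means of 16.7 ± 2.36 CPM in shAnkrd35 and 3.61 ± 0.523 CPM in shGFP (SD, n = 4 each). In 2D it was 2.32 ± 0.12, from 32.9 ± 4.01 CPM in shAnkrd35 and 6.48 ± 0.540 CPM in shGFP. The fold in 3D minus the fold in 2D was -0.14 ± 0.17. After removal of the length and GC trend the folds were 2.12 in 3D and 2.20 in 2D, and leaving out each library in turn gave 2.09 to 2.24 in 3D and 2.26 to 2.39 in 2D.

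Between growth types Ogdhl was lower in 3D with either hairpin. In limma, with Benjamini-Hochberg adjustment of p-values across the 12320 genes, it fell by 0.98 ± 0.12 on the log2 scale in 3D against 2D with shAnkrd35 (adjusted p = 1.89e-06) and fell by 0.84 ± 0.12 with shGFP (adjusted p = 1.02e-05). In each case all 4 libraries in 3D were below all 4 in 2D. Below, adjusted p-values are of the same kind, and rose and fell are used where that p was under 0.05. Groups that do not overlap are a description, since the share of all genes without overlap was not counted.

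Some markers of other cell types were also measured. Of 3 neuronal markers only Tubb3 was measured, at 1.96 to 3.53 CPM in 3D shAnkrd35, 0.489 to 1.01 CPM in 3D shGFP, 2.08 to 2.52 CPM in 2D shAnkrd35 and 3.55 to 3.98 CPM in 2D shGFP, and Snap25 and Syt1 were not analysed here. Tubb3 had a log2 fold change between hairpins of 1.59 in 3D (limma adjusted p = 1.43e-05) and of -0.685 in 2D (adjusted p = 0.00828). Of 3 hepatocyte markers, Alb and Apoa1 summed to 4.36 to 36.3 CPM in 3D shAnkrd35, 5.36 to 7.68 CPM in 3D shGFP, 6.87 to 14.9 CPM in 2D shAnkrd35 and 6.76 to 10.6 CPM in 2D shGFP. These ranges overlapped between the hairpins in both growth types, and the part of other cells in the Ogdhl level was not tested. Of fibroblast markers 4 of 5 summed to 11.2 to 43.4 CPM in 3D shAnkrd35, 22.8 to 25.5 CPM in 3D shGFP, 16.7 to 18.4 CPM in 2D shAnkrd35 and 25.7 to 29.2 CPM in 2D shGFP. These sums did not overlap between hairpins in 2D. In 3D the markers went both ways. Col1a2 had a log2 fold change of 1.68 (limma adjusted p = 0.00796), against -1.41 for Pdgfrb (6.6e-08) and -0.66 for Pdgfra (0.0274). Of macrophage markers Cd68 alone of 4 was measured, at 2.67 to 7.74 CPM in 3D shAnkrd35 against 3.50 to 5.88 CPM in 3D shGFP, and at 3.08 to 5.33 CPM in 2D shAnkrd35 against 1.98 to 2.28 CPM in 2D shGFP. Cd68 did not overlap between hairpins in 2D, with a log2 fold change of 0.93 (limma adjusted p = 0.00512), and had -0.14 in 3D (adjusted p = 0.741). None of 3 endothelial markers was measured.

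Ogdh (chromosome 11, 6291633 to 6356642, plus strand, 27 exonic blocks) ranged from 178 to 226 CPM over all 16 libraries. It had 223, 220, 222 and 226 CPM in 3D shAnkrd35, against 198, 197, 209 and 204 CPM in 3D shGFP, and the groups did not overlap. In 2D it had 222, 208, 205 and 191 CPM with shAnkrd35, against 195, 178, 196 and 192 CPM with shGFP, where the groups overlapped. The log2 fold changes between hairpins were 0.14 ± 0.05 in 3D (limma adjusted p = 0.028) and 0.12 ± 0.05 in 2D (adjusted p = 0.0337). Both calls were thin. In 3D the call was lost in 5 of the 16 fits that left out a library (replicates 1 and 2 of 3D shGFP and 1, 3 and 4 of 3D shAnkrd35, adjusted p 0.0510 to 0.0774). In 2D it was lost without replicate 2 or 4 of shGFP and without replicate 1, 2 or 3 of shAnkrd35 (adjusted p 0.0529 to 0.117), and the fold was 0.04 after removal of the length and GC trend (adjusted p = 0.395).

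Levels of the paralogs were compared per kilobase of exon, 4148 bases for Ogdhl and 5456 for Ogdh. On that scale Ogdhl averaged 4.02 ± 0.569 CPM per kb and Ogdh 40.8 ± 0.416 CPM per kb in 3D shAnkrd35, against 0.871 ± 0.126 and 37.0 ± 1.02 CPM per kb in 3D shGFP. In 2D shAnkrd35 Ogdhl averaged 7.93 ± 0.966 and Ogdh 37.9 ± 2.31 CPM per kb, against 1.56 ± 0.130 and 34.9 ± 1.55 CPM per kb in 2D shGFP (SD, n = 4). Ogdh remained the more abundant E1 transcript in every library. As a geometric mean over the 4 libraries of a group, its level per kb was 10.2 times that of Ogdhl in 3D shAnkrd35 and 42.9 times in 3D shGFP. In 2D it was 4.80 times with shAnkrd35 and 22.3 times with shGFP.

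The share of Ogdhl in the summed level of both E1 genes per kb was 10.7, 8.58, 8.29 and 8.33% in 3D shAnkrd35, against 1.91, 2.61, 2.14 and 2.53% in 3D shGFP. In 2D it was 18.1, 18.1, 16.6 and 16.2% with shAnkrd35, against 4.58, 4.19, 4.31 and 4.07% with shGFP. The 4 groups had separate ranges of the share. The summed level was 44.8 ± 0.738 CPM per kb in 3D shAnkrd35, against 37.9 ± 1.03 CPM per kb in 3D shGFP, and 45.8 ± 3.24 CPM per kb in 2D shAnkrd35, against 36.4 ± 1.66 CPM per kb in 2D shGFP. The sum was higher in each library labelled shAnkrd35 than in any shGFP library. Both the share and the sum hold Ogdhl, which was selected on its fold between hairpins, so they are a description. The sum was not run under the alternatives.

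**Figure D1:**
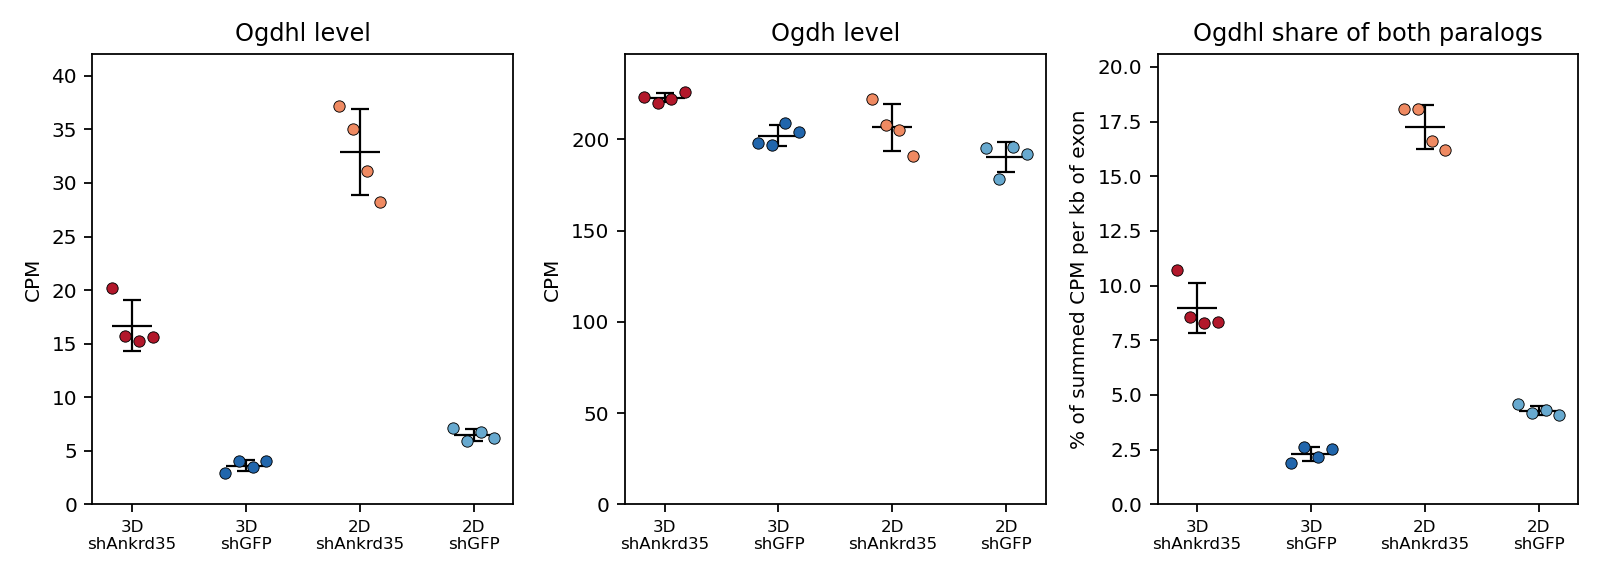
Ogdhl and Ogdh in CPM (left and middle) and the share of Ogdhl in the summed level of both genes in percent of CPM per kb of exon (right), by group on the horizontal axis. Points are libraries and bars are the mean and SD of 4. Ogdhl and its share fall into 4 separate ranges, from 1.91% to 18.1%, while Ogdh stays between 178 and 226 CPM.

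Dlst, the E2 core that passes the succinyl group to coenzyme A, rose with the shAnkrd35 label in both growth types. It had 151, 150, 147 and 149 CPM in 3D shAnkrd35, against 137, 136, 132 and 137 CPM in 3D shGFP. It had 168, 168, 163 and 158 CPM in 2D shAnkrd35, against 147, 136, 148 and 143 CPM in 2D shGFP. Neither pair of groups overlapped. Dlst rose by 0.14 ± 0.04 on the log2 scale in 3D (adjusted p = 0.0115) and by 0.19 ± 0.04 in 2D (adjusted p = 0.000374). Both calls held in all 16 fits without a library, and the 2D value was 0.14 after removal of the length and GC trend.

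Dld, the flavoprotein E3 that reoxidises the lipoyl groups, was the only member to fall with the shAnkrd35 label, and its fall was in 2D. In 2D it had 56.9, 44.2, 45.5 and 57.2 CPM with shAnkrd35, against 50.6, 73.5, 58.4 and 69.8 CPM with shGFP, with overlap between the groups. In 3D it had 89.5, 93.9, 82.6 and 94.6 CPM with shAnkrd35, against 86.1, 83.7, 88.3 and 96.4 CPM with shGFP. The fold between hairpins was -0.30 ± 0.11 in 2D (adjusted p = 0.0274) and 0.02 ± 0.11 in 3D (adjusted p = 0.9). Dld has the lowest GC content of the members, 40.6% against 55.0% for Ogdhl and a median of 49.7% over all genes. After removal of the length and GC trend the 2D fold was -0.05 (adjusted p = 0.526), and the call was also lost without replicate 2 or 4 of 2D shGFP and without replicate 2 or 3 of 2D shAnkrd35 (adjusted p 0.0868 to 0.0936).

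Cs, citrate synthase at the entry of the cycle, rose in both growth types. It had 302, 303, 287 and 314 CPM in 3D shAnkrd35, against 258, 249, 263 and 270 CPM in 3D shGFP, and 382, 358, 347 and 330 CPM in 2D shAnkrd35, against 302, 292, 321 and 322 CPM in 2D shGFP. The groups did not overlap in either growth type. It rose by 0.22 ± 0.05 in 3D (adjusted p = 0.00342) and by 0.20 ± 0.05 in 2D (adjusted p = 0.00322).

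Idh3a, the catalytic subunit of the NAD-dependent isocitrate dehydrogenase, had 112, 105, 104 and 111 CPM in 3D shAnkrd35, against 84.7, 83.9, 87.2 and 86.9 CPM in 3D shGFP. In 2D it had 110, 94.6, 97.2 and 108 CPM with shAnkrd35, against 90.3, 85.5, 91.8 and 90.4 CPM with shGFP. It did not overlap between hairpins in 3D or in 2D. Its rise of 0.34 ± 0.05 in 3D (adjusted p = 6.66e-05) was the largest of the 8 members other than Ogdhl, and in 2D it rose by 0.19 ± 0.05 (adjusted p = 0.00362).

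Mdh2, the mitochondrial malate dehydrogenase that regenerates oxaloacetate, had 297, 284, 304 and 274 CPM in 3D shAnkrd35, against 256, 263, 242 and 258 CPM in 3D shGFP. In 2D it had 301, 356, 345 and 337 CPM with shAnkrd35, against 290, 263, 284 and 286 CPM with shGFP. Again the hairpin groups did not overlap. It rose by 0.18 ± 0.05 in 3D (adjusted p = 0.0152), a call lost without replicate 3 of 3D shGFP (0.0553) or of 3D shAnkrd35 (0.0515). In 2D it rose by 0.25 ± 0.05 (adjusted p = 0.000824), but by 0.02 after removal of the length and GC trend (adjusted p = 0.621).

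Suclg1 and Fh1 passed the test in 2D and not in 3D. Suclg1, the shared alpha subunit of the succinyl-CoA ligases, was 87.3 to 110 CPM in 2D shAnkrd35 against 79.5 to 84.2 CPM in 2D shGFP, a rise of 0.29 ± 0.07 (adjusted p = 0.00183). In 3D it was 75.9 to 92.2 CPM with shAnkrd35 against 76.4 to 82.3 CPM with shGFP, with a fold of 0.08 ± 0.07 (adjusted p = 0.444). Fh1, the fumarase, was 75.2 to 87.1 CPM in 2D shAnkrd35 against 68.1 to 77.4 CPM in 2D shGFP, a rise of 0.17 ± 0.06 (adjusted p = 0.0176). That call was lost without replicate 2 of 2D shGFP or replicate 2 or 3 of 2D shAnkrd35 (adjusted p 0.0516 to 0.0682) and after removal of the length and GC trend (0.11, adjusted p = 0.0818). In 3D Fh1 was 77.1 to 86.6 CPM with shAnkrd35 against 79.5 to 87.2 CPM with shGFP, with a fold of -0.04 ± 0.06 (adjusted p = 0.653). Fh1 overlaps Kmo on the opposite strand, and the use of strand in counting is not given in the sources used here.

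**Figure D2:**
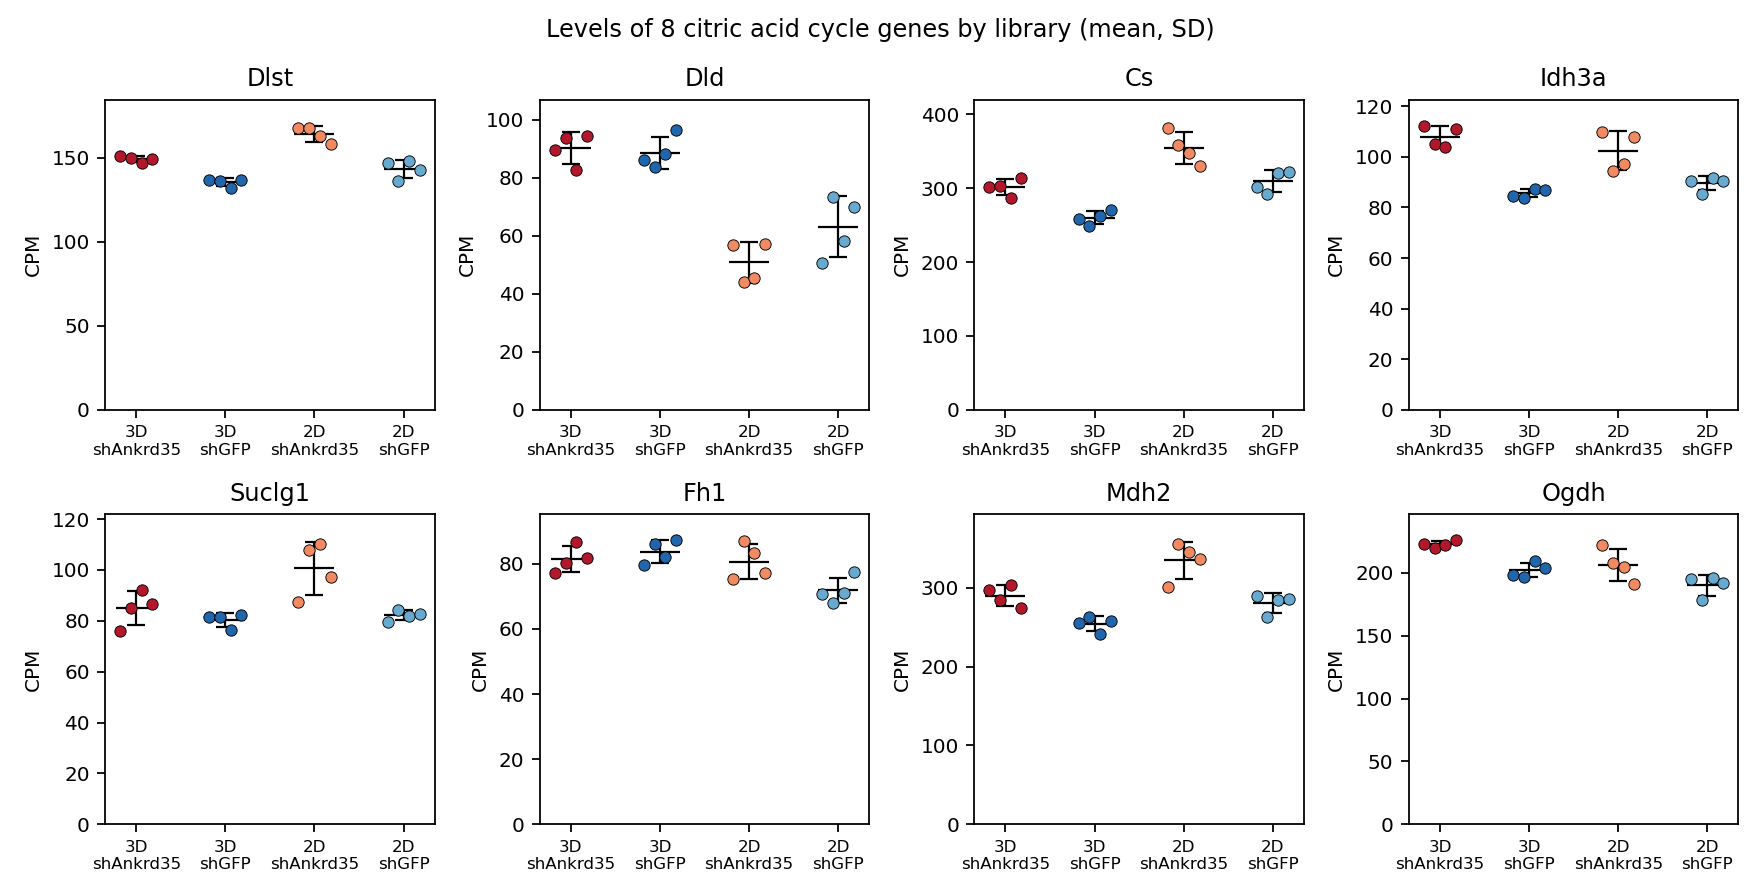
Levels of the 8 members other than Ogdhl in CPM (vertical axes, each from 0) in the 4 groups. Points are libraries and bars are the mean and SD of 4. Dlst, Cs, Idh3a and Mdh2 do not overlap between hairpins in either growth type, and Dld is at 82.6 to 96.4 CPM in 3D and 44.2 to 73.5 CPM in 2D. The share of all genes without overlap was not counted.

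Counted together, 7 of the 8 members other than Ogdhl rose in 2D shAnkrd35 against 2D shGFP, where 29.0% of all genes tested rose, and 1 fell, where 28.8% of all genes fell. Their median log2 fold change was 0.19, beside 0.007 over all genes. In 3D shAnkrd35 against 3D shGFP 5 rose, where 15.0% of all genes rose, and 0 fell, where 14.6% fell, with 3 past no threshold. The median was 0.14, beside 0.00 over all genes. Without replicate 3 of 3D shAnkrd35, the shallowest library, 3 rose, where 1581 of the 12320 genes rose. Without replicate 1 of 2D shAnkrd35 the counts in 2D were 6 risen and 1 fallen, where 3861 of all genes rose and 3922 fell. After removal of the length and GC trend they were 4 and 0, with Dlst, Cs, Idh3a and Suclg1 still called. Of all genes 3222 then rose and 3691 fell. The members were chosen with earlier results of these data known, so the counts are a description and an excess over all genes was not tested.

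Between growth types the members changed in both directions. With shAnkrd35, 3D against 2D, 2 of all 9 rose, where 34.4% of all genes rose, and 5 fell, where 36.0% of all genes fell. With shGFP 2 rose, where 35.2% of all genes rose, and 3 fell, where 32.1% fell. The members' shares were thus 22.2% and 55.6% with shAnkrd35 and 22.2% and 33.3% with shGFP, where 1 gene alone makes 11.1%.

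Dld was higher in 3D with either hairpin. It rose by 0.83 ± 0.11 with shAnkrd35 (adjusted p = 6.25e-06), from means of 90.2 ± 5.53 CPM in 3D and 51.0 ± 7.05 CPM in 2D, and by 0.50 ± 0.11 with shGFP (adjusted p = 0.000768), from 88.6 ± 5.49 CPM in 3D and 63.1 ± 10.5 CPM in 2D (SD, n = 4 each). After removal of the length and GC trend its rise was 0.24 with shAnkrd35 (adjusted p = 0.0013), and the call with shGFP was lost (0.05, adjusted p = 0.442). Cs fell by 0.23 ± 0.05 with shAnkrd35 (adjusted p = 0.000565) and fell by 0.25 ± 0.05 with shGFP (adjusted p = 0.000298), and its 3D libraries lay below its 2D libraries with either hairpin. After removal of the length and GC trend the value for Cs with shAnkrd35 was -0.11 (adjusted p = 0.0465), and the call was lost when a replicate block was added (adjusted p = 0.0663). Dlst fell by 0.14 ± 0.04 with shAnkrd35 (adjusted p = 0.00338), a call lost after removal of the length and GC trend (-0.01, adjusted p = 0.768). With shGFP Dlst had -0.08 ± 0.04 (adjusted p = 0.0681), and it passed without replicate 2 of 2D shGFP (-0.11, adjusted p = 0.0199).

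Mdh2 fell by 0.21 ± 0.05 with shAnkrd35 (adjusted p = 0.00242), which turned to 0.07 after removal of the length and GC trend (adjusted p = 0.0662), and fell by 0.14 ± 0.05 with shGFP (adjusted p = 0.0290). Its call with shGFP was lost without replicate 1, 3 or 4 of 2D shGFP or replicate 1 or 3 of 3D shGFP (adjusted p 0.0503 to 0.0928), and with quantile scaling (-0.04, adjusted p = 0.55). Suclg1 fell by 0.24 ± 0.07 with shAnkrd35 (adjusted p = 0.00456) and had -0.03 ± 0.07 with shGFP (adjusted p = 0.715). Fh1 had 0.01 ± 0.06 with shAnkrd35 (adjusted p = 0.825) and rose by 0.22 ± 0.06 with shGFP (adjusted p = 0.00225). Ogdh rose by 0.11 ± 0.05 with shAnkrd35 (adjusted p = 0.0425) and had 0.09 ± 0.05 with shGFP (adjusted p = 0.0989). Its call with shAnkrd35 was lost in 10 of the 16 fits without a library (adjusted p 0.0510 to 0.157), those without replicate 2, 3 or 4 of 2D shAnkrd35, any of the 4 in 3D shAnkrd35, replicate 4 of 2D shGFP or replicate 1 or 4 of 3D shGFP. After removal of the length and GC trend Ogdh had 0.31 with shAnkrd35 (adjusted p = 2.98e-07) and passed with shGFP (0.25, adjusted p = 4.36e-06), and Fh1 passed with shAnkrd35 (0.12, adjusted p = 0.0348). The remaining member, Idh3a, passed the threshold with neither hairpin (adjusted p = 0.146 with shAnkrd35 and 0.275 with shGFP). With shAnkrd35 Idh3a passed without replicate 1 of 2D shAnkrd35 (0.12, adjusted p = 0.0354) and after removal of the length and GC trend (0.15, adjusted p = 0.0158).

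**Figure D3:**
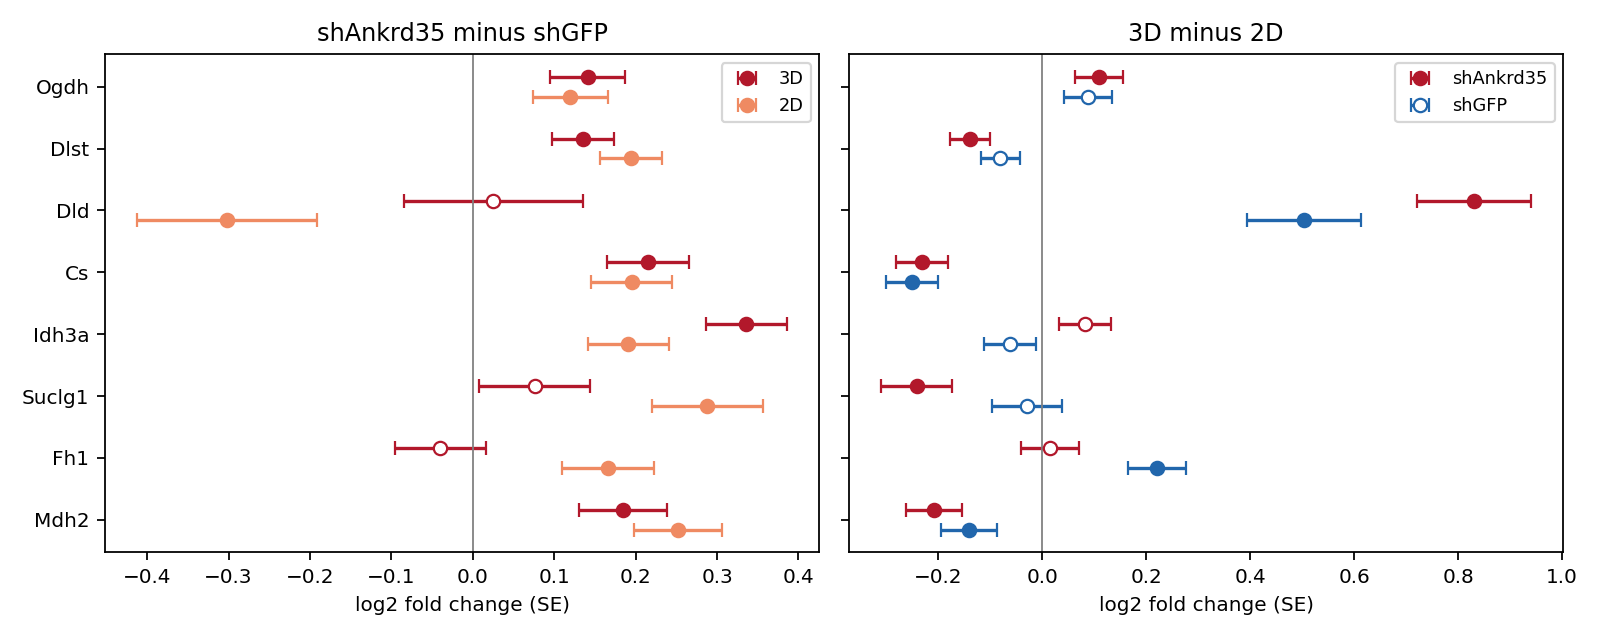
Log2 fold changes of the 8 members other than Ogdhl between hairpins (left) and between growth types (right). Bars are the SE from limma, and filled symbols have an adjusted p under 0.05. In 2D 7 members lie right of 0 between hairpins, and Dld, at 0.83 and 0.50, lies farthest right between growth types, before removal of the length and GC trend.

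Whether the hairpin difference itself depended on growth type was tested as the fold in 3D minus the fold in 2D. None of the 8 members passed by limma, where 35.8% of all genes did, and 1 of them had an adjusted p near the threshold: Fh1, at -0.21 ± 0.08 (adjusted p = 0.0514). Dld had 0.33 ± 0.16 (0.111), Suclg1 -0.21 ± 0.10 (0.0947) and Idh3a 0.15 ± 0.07 (0.115). At an unadjusted p under 0.05 the count was 2 lower, Fh1 and Suclg1, and 0 higher. Without replicate 1 of 2D shAnkrd35, the most distant library of its group, Idh3a passed at 0.18 (adjusted p = 0.0324), Suclg1 at -0.28 (0.01) and Fh1 at -0.24 (0.0169). With the length and GC trend removed, Idh3a passed at 0.25 (0.0131) and Mdh2 at 0.17 (0.00999), against -0.07 for Mdh2 before it. Dld passed without replicate 1 of 2D shGFP (0.43, adjusted p = 0.0182). Fh1 also passed without replicate 4 of 2D shGFP or of 2D shAnkrd35, replicate 1 of 3D shGFP or replicate 3 of 3D shAnkrd35 (adjusted p 0.0314 to 0.0459). The count of 0 therefore depends on these settings.

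Levels per kilobase of exon placed the members in a wide range in every group. In 3D shAnkrd35 the order was Mdh2 at 81.3 ± 3.72 CPM per kb, Cs at 52.2 ± 1.91, Ogdh at 40.8 ± 0.416, Dld at 24.5 ± 1.5, Fh1 at 24.0 ± 1.17, Idh3a at 21.3 ± 0.819, Suclg1 at 18.4 ± 1.46, Dlst at 15.6 ± 0.154 and Ogdhl at 4.02 ± 0.569 (SD, n = 4). Dld and Fh1 did not differ beyond their spread. In 2D shGFP Mdh2 led at 78.8 ± 3.37 CPM per kb and Ogdhl was lowest at 1.56 ± 0.130, with Dld at 17.1 ± 2.86, Suclg1 at 17.8 ± 0.433 and Idh3a at 17.6 ± 0.548, which did not differ beyond their spread. The place of Dlst rests on its merged exonic length of 9559 bases. Per kb of its longest transcript, 3220 bases, Dlst stood at 46.3 ± 0.458 in 3D shAnkrd35 and came next after Ogdh at 54.0 ± 0.551.

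Across the 16 libraries, the log2 values of Dlst had a Pearson correlation of 0.938 with those of Ogdhl, rank 53 of 9897 named genes with a mean of at least 5 CPM. Mdh2 had 0.865, Cs 0.840, Idh3a 0.810, Suclg1 0.690, Ogdh 0.466, Fh1 0.085 and Dld -0.509. The genes closest to Ogdhl were Retsat, a retinol saturase, at 0.986, Igsf9 at 0.983, Speg at 0.980, Arap3 at 0.977, Rtn2, a reticulon, at 0.973 and the histone deacetylase Hdac5 at 0.970. The lowest were the flavin monooxygenase Fmo2 at -0.988, Golga7 at -0.987 and Pitpnm3 at -0.981. These values describe 16 libraries that share 4 groups and their GC slopes, and they are not independent points.

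Of the 9 cycle enzymes and subunits outside the member set, 7 rose and 1 fell in 2D shAnkrd35 against 2D shGFP, where 29.0% of all genes rose and 28.8% fell, with a median of 0.44 beside 0.007 over all genes. Suclg2, the beta subunit of the GTP-forming succinyl-CoA ligase, rose by 0.50 (adjusted p = 8.67e-07), Sdhb, the iron-sulphur subunit of succinate dehydrogenase, by 0.56 (1.33e-06) and Idh3b, a regulatory subunit of isocitrate dehydrogenase, by 0.44 (5.46e-06). Sucla2, the beta subunit of the ATP-forming ligase, fell by 0.31. In 3D shAnkrd35 against 3D shGFP 3 rose and 0 fell, where 15.0% of all genes rose and 14.6% fell, with a median of 0.04: Sdhb by 0.31 (0.000996), the flavoprotein subunit Sdha by 0.17 (0.00625) and Suclg2 by 0.17 (0.0191). The hairpin effect in 3D was below that in 2D for 6 of the 9, where 35.8% of all genes differed in either direction, and the smallest adjusted p-values were those of Idh3g at -0.42 (0.00265), Suclg2 at -0.32 (0.00394) and Sdhc at -0.54 (0.00452). With the length and GC trend removed, it was below for 3 of the 9 and above for 1, with Idh3g at -0.22. Of all genes 2024 were then lower and 2265 higher. In 2D that removal left 6 risen and 1 fallen and a median of 0.23, with Sdhb at 0.25. Of all genes 3222 then rose in 2D and 3691 fell.

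Among the same 9, 3D against 2D with shAnkrd35 gave 2 risen and 4 fallen, where 34.4% of all genes rose and 36.0% fell. Sucla2 rose by 0.96 (adjusted p = 4.01e-07) and Sdha by 0.18, while Sdhb fell by 0.30 (0.00036). The counts were 4 risen and 1 fallen after removal of the length and GC trend, when Sdha had 0.32 and the fall of Sdhb was lost (0.05, adjusted p = 0.37). Of all genes 4814 then rose and 3527 fell. With shGFP 5 rose and 0 fell, where 35.2% of all genes rose and 32.1% fell, among them Suclg2 at 0.40, Sucla2 at 0.76 and Idh3b at 0.40. That removal left Suclg2 at 0.26 and Sucla2 at 0.50 with shGFP.

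The list of related 2-oxoacid dehydrogenases and lipoylation enzymes had 9 measured members, of which 5 rose and 2 fell in 2D shAnkrd35 against 2D shGFP (median 0.22), where 29.0% of all genes rose and 28.8% fell, so the 22.2% of the list that fell was near the share over all genes. Dhtkd1, the E1 of the 2-oxoadipate complex that shares Dlst and Dld, rose by 0.77 (adjusted p = 0.00019), from means of 6.94 CPM in shAnkrd35 and 4.06 CPM in shGFP. Bckdha, the alpha subunit of the branched-chain E1, rose by 0.55 (8.57e-06), while its beta subunit Bckdhb fell by 0.59 (9.84e-07) and the branched-chain E2, Dbt, fell by 0.44. With the length and GC trend removed, Bckdha had 0.30 and Dbt -0.21. In 3D 2 rose and 0 fell (median 0.06), where 15.0% of all genes rose and 14.6% fell: Dhtkd1 by 0.52 (0.00839) and Mrps36, which links E3 to the E2 core of the oxoglutarate complex, by 0.31 (0.0432). The difference of effects passed for 4, with Bckdha at -0.49 and Lipt2 at -0.59 lower in 3D and Bckdhb at 0.43 and Dbt at 0.40 higher. Over all genes 35.8% passed. With the length and GC trend removed, the call of Lipt2 was lost (-0.35, adjusted p = 0.136), and Bckdha had -0.29 and Bckdhb 0.68.

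In 3D against 2D, 1 of these 9 rose and 4 fell with shAnkrd35, where 34.4% of all genes rose and 36.0% fell, and 2 rose and 4 fell with shGFP, where 35.2% rose and 32.1% fell. Dbt rose by 1.17 (adjusted p = 6.81e-09) with shAnkrd35 and by 0.77 (8.29e-07) with shGFP. Bckdk, the kinase of the branched-chain complex, fell by 0.39 with shAnkrd35 and fell by 0.30 with shGFP. Bckdha fell by 0.64 with shAnkrd35, Bckdhb fell by 0.52 with shGFP, and the lipoylation enzyme Lipt2 rose by 0.48 with shGFP. Once the length and GC trend was removed, Dbt had 0.73 with shAnkrd35 and 0.46 with shGFP, Bckdk had -0.15 with shAnkrd35 and -0.16 with shGFP, and Bckdha had -0.27 with shAnkrd35. The counts with shAnkrd35 were then 2 risen and 3 fallen, where 4814 of all genes rose and 3527 fell.

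For pyruvate entry 12 of 13 genes were measured, and Pdk4 was not analysed here. In 2D shAnkrd35 against 2D shGFP 5 rose and 1 fell (median 0.10), where 29.0% of all genes rose and 28.8% fell. In 3D 4 rose and 1 fell (median 0.13), where 15.0% rose and 14.6% fell. Pdpr, the regulatory subunit of pyruvate dehydrogenase phosphatase, rose by 0.43 in 2D (adjusted p = 8.69e-05) and by 0.54 in 3D (2.05e-05), and the kinase Pdk2 rose by 0.41 in 2D and by 0.34 in 3D. Pdhb, the beta subunit of the pyruvate dehydrogenase E1, fell by 0.35 in 2D (0.00132) and fell by 0.47 in 3D (0.000203). The difference of effects passed for Pdk1 alone, at 0.28 (0.0311), where 35.8% of all genes passed, and that call was lost after removal of the length and GC trend (0.18, adjusted p = 0.0625). The 2D counts were 4 risen and 3 fallen without replicate 1 of 2D shAnkrd35, where 3861 of all genes rose and 3922 fell. They were 7 and 2 after removal of the trend, with Pdk2 at 0.18, where 3222 of all genes rose and 3691 fell.

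In 3D against 2D, 5 pyruvate entry genes rose and 1 fell with shAnkrd35, where 34.4% of all genes rose and 36.0% fell, and 6 rose and 2 fell with shGFP, where 35.2% rose and 32.1% fell. With shAnkrd35 the counts were 8 risen and 0 fallen without replicate 1 of 2D shAnkrd35, where 4412 of all genes rose and 4630 fell. They were 7 and 2 after removal of the length and GC trend, where 4814 of all genes rose and 3527 fell. Mpc2, a subunit of the mitochondrial pyruvate carrier, rose by 0.75 with shAnkrd35 (adjusted p = 2.72e-07) and by 0.66 with shGFP. Its partner Mpc1 rose by 1.13 with shAnkrd35 and by 0.77 with shGFP, and Pdhx by 0.34 with shAnkrd35 and by 0.48 with shGFP. The rises of Mpc1 with shGFP and of Pdhx with shAnkrd35 are given without the values of the alternatives. Pdk2 rose by 0.32 with shAnkrd35 and 0.40 with shGFP. Pdp2 fell by 0.27 with shAnkrd35 and fell by 0.25 with shGFP, and Pdk1 fell by 0.30 with shGFP. The call of Pdp2 was lost with shAnkrd35 without replicate 1 of 2D shAnkrd35 (-0.15, adjusted p = 0.11) and with shGFP after removal of the trend (-0.16, adjusted p = 0.118), when Mpc2 had 0.42 and Pdk2 0.67 with shAnkrd35.

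Enzymes and carriers that branch from or refill the cycle changed in both directions. Of 21, 11 rose and 5 fell in 2D shAnkrd35 against 2D shGFP (median 0.21), where 29.0% of all genes rose and 28.8% fell. In 3D 6 rose and 3 fell (median 0.07), where 15.0% rose and 14.6% fell. Got2, the mitochondrial aspartate aminotransferase that makes 2-oxoglutarate from glutamate, fell by 0.81 in 2D (adjusted p = 8.34e-11) and fell by 0.48 in 3D (6.97e-08). Gpt2, the mitochondrial alanine aminotransferase, fell by 0.97 in 2D (1.37e-08), from means of 79.0 CPM in shAnkrd35 and 155 CPM in shGFP. In 3D Gpt2 rose by 0.24 (0.0172), from means of 16.9 CPM in shAnkrd35 and 14.2 CPM in shGFP, given without the values of the alternatives. Glud1, glutamate dehydrogenase, fell by 0.27 in 2D. Acly, which splits exported citrate, rose by 0.54 in 2D (7.1e-08) and by 0.28 in 3D (0.000194). In 2D Pck2 fell by 0.33 and Pcx, pyruvate carboxylase, fell by 0.17. In 3D the cytosolic aspartate aminotransferase Got1 rose by 0.56 (1.67e-08), while the malic enzyme Me1 fell by 0.18 and Aco1 fell by 0.14. The difference of effects passed for 17 of the 21, where 35.8% of all genes passed, with 6 higher in 3D (Gpt2 at 1.21, Got1 at 0.49, Pck2 at 0.40, Got2 at 0.32, Pcx at 0.28 and Glud1 at 0.21) and 11 lower, among them Idh1 at -0.68. Once the length and GC trend was removed, 6 were higher and 7 lower, where 2265 of all genes were higher and 2024 lower. Between hairpins Pcx then had -0.28 in 2D and Me1 -0.11 in 3D.

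**Figure D4:**
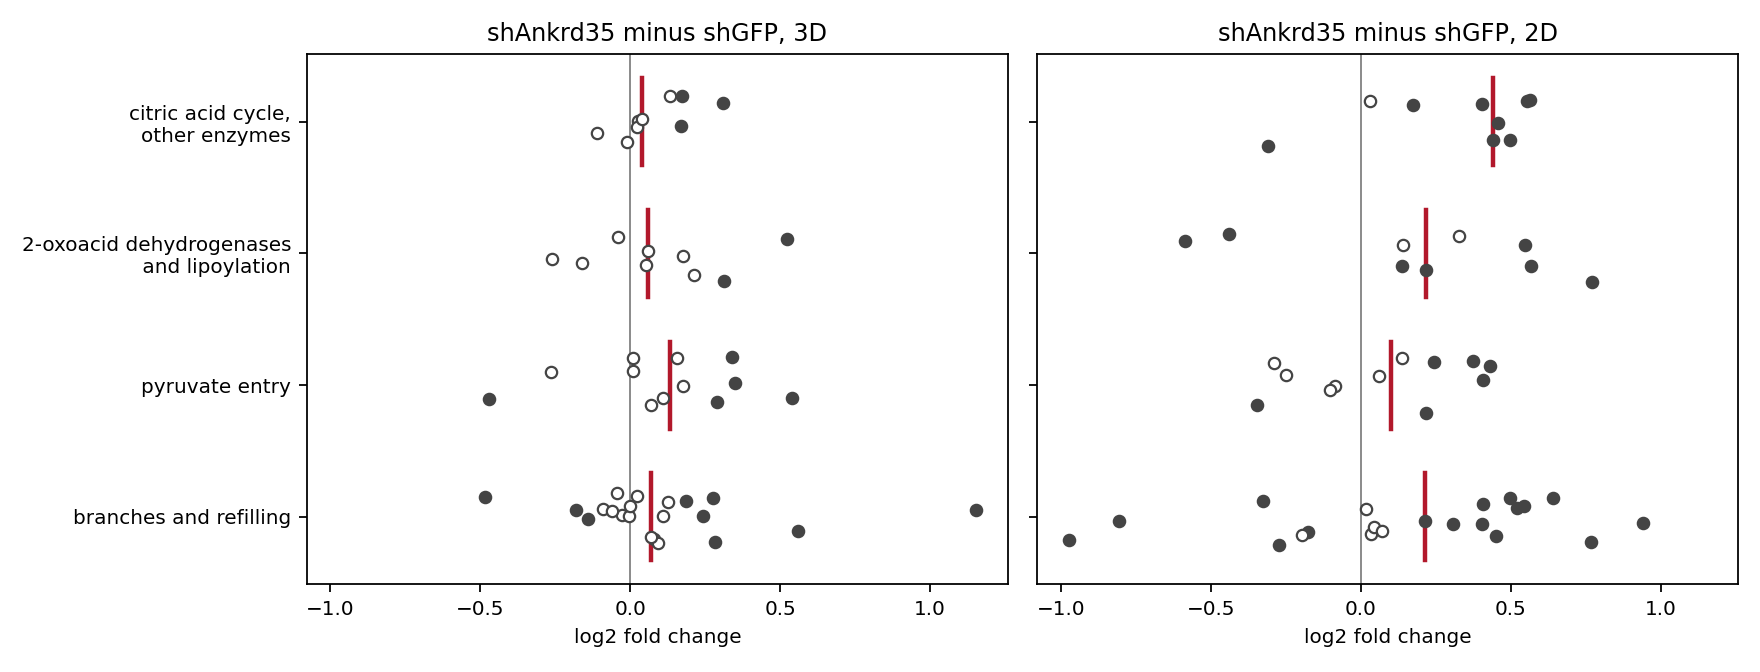
Log2 fold changes between hairpins in 3D (left) and 2D (right) for the 4 lists around the member set, 1 point per gene. Filled points have an adjusted p under 0.05 by limma, red lines are list medians, and the vertical scatter within a list has no meaning. The other cycle enzymes have a median of 0.44 in 2D and 0.04 in 3D.

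By growth type the same 21 genes also changed in both directions. In 3D against 2D, 7 rose and 10 fell with shAnkrd35, where 34.4% of all genes rose and 36.0% fell. With shGFP 10 rose and 8 fell, where 35.2% rose and 32.1% fell. The 33.3% that rose with shAnkrd35 and the 38.1% that fell with shGFP were near the shares over all genes. Gpt2 fell by 2.22 with shAnkrd35 (adjusted p = 1.65e-13) and fell by 3.44 with shGFP (2.86e-16), and Pck2, mitochondrial phosphoenolpyruvate carboxykinase, fell by 1.15 with shAnkrd35 and fell by 1.55 with shGFP. The dicarboxylate carrier Slc25a10 rose by 0.73 with shAnkrd35 and by 0.97 with shGFP. With shAnkrd35 Pcx rose by 0.52, Me1 by 0.44, Idh1 by 0.39 and Me2 by 0.19. With shGFP these also rose, Pcx by 0.23, Me1 by 0.65, Idh1 by 1.075 and Me2 by 0.50. These rises with shGFP are given without the values of the alternatives. With shGFP Got1 fell by 0.84, Me3 fell by 1.5, Got2 fell by 0.50, Glud1 fell by 0.19, Slc25a1 fell by 0.19 and Acly fell by 0.13. Once the length and GC trend was removed, the counts with shAnkrd35 were 11 risen and 7 fallen, where 4814 of all genes rose and 3527 fell. The call of Me2 with shAnkrd35 was then lost (0.03, adjusted p = 0.566), as were those of Slc25a1 (-0.01, adjusted p = 0.753) and Acly (0.04, adjusted p = 0.44) with shGFP. With shAnkrd35 Slc25a10 had 1.11, Pcx 0.79 and Idh1 0.21.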

How the data were processed

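Per the labels' protocols, libraries were made from oligo(dT)-selected, fragmented RNA that was primed with random hexamers. The tools named per the submitters' processing notes are STAR 2.5.1b, Trimmomatic 0.38 and edgeR, on the mm10 build. The sources used here give no counting program, annotation or use of strand. The deposited matrix holds log2 values for 12321 genes in 16 libraries. From the values, each is the log2 of CPM after a prior count averaging 2 reads was added, and 100% came out as whole reads within 0.01 once it was taken off. These reads gave the CPM printed here. GENCODE M21 held 12218 of the symbols and lacked 103, and was the source of coordinates, lengths and GC content. Before matching, 386 altered symbols were restored.

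Because the values were log2, limma 3.58.1 (R 4.3.3, statmod 1.5.0; empirical Bayes with trend and robust fitting) was fitted to the deposited values. It used all 16 libraries in 4 group means, for genes with at least 1 CPM in at least 4 libraries, which removed Ankrd35. Benjamini-Hochberg adjustment covered the 12320 genes in each comparison, with a threshold of 0.05. Fold changes include the prior and understate changes of low genes. The steps were checked on simulated data in which most genes were unchanged and no trend with length or GC content was present. That check does not cover data with wide change or such a trend. Alternatives changed the filter, the scaling, the libraries, the error model, the pairing of replicate numbers, a trend with length and GC content, and the length used for the paralogs.

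The members and lists were chosen with earlier results of these data known, so no p-value is given for the hairpin effect of Ogdhl or over a list. Named genes were all members, Ankrd35, and per list and comparison up to 3 called genes with the smallest p plus those against the majority. The 6 highest and 3 lowest correlations with Ogdhl were also named. Some genes that this rule names are not reported here.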

Additional observations from a re-analysis of the deposited data

Results flagged for a closer look

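Among the 36 sets of 4 libraries (9 members in 4 groups), 2 held a library set apart from the rest of its group by more than Dixon's 95% critical value, where about 1 in 20 such sets is expected to do so by chance. Ogdhl in replicate 1 of 3D shAnkrd35 was at 20.2 CPM, against 15.2 to 15.7 CPM in the other 3, and the gap was 0.886 of the group's range. Without that library the log2 fold of Ogdhl between hairpins in 3D was 2.09, against 2.18 with it. Suclg1 in replicate 3 of 3D shGFP was at 76.4 CPM, against 81.4 to 82.3 CPM in the other 3, with a gap of 0.850 of the range. Without it Suclg1 was still not called between hairpins in 3D (0.05, adjusted p = 0.68). The origin of either value was not tested.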

How the results depend on the processing

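The log2 folds of Ogdhl between hairpins kept their direction under every alternative run, as did its fall in 3D, and Dlst, Cs, Idh3a and Suclg1 kept their 2D calls. Where a change is listed here, the cause was not tested, beyond what the alternative removes.

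Removal of the length and GC trend, with or without a replicate block, left 4 members higher in 2D (7 before) and 0 lower, as did only the 8 libraries of the comparison for the lower ones. Without the block it gave 3222 of all genes higher and 3691 lower in 2D (3575 and 3554 before). With shAnkrd35 it gave 4 members higher in 3D against 2D (2 before) and 3 lower, or 2 with the block (5 before). Over all genes it gave 4814 higher and 3527 lower there without the block (4235 and 4441 before). The count of members higher was 1 with equal library medians, only the 8 libraries, no trend or robust fitting, or the block. In these fits 3620 to 4242 of all genes were higher. Equal medians gave 5 members lower with shGFP (3 before), turned the split of all called genes from 4331 higher and 3954 lower to 3647 and 4557, and moved the median over all genes with shAnkrd35 to -0.110.

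For the difference of effects, array weights gave 3623 genes higher (2110 before) and 2 members in each direction. Removal of the length and GC trend gave 2 members higher, where 2265 of all genes were higher. A 5 CPM minimum gave 1 member lower, where 2194 of 10281 genes were lower. Quantile scaling gave 1 lower, where 2413 of all genes were lower. The difference could not be computed from 8 libraries. Leaving out each library gave 5 to 7 members higher and 0 to 1 lower in 2D, 3 to 5 higher in 3D, 1 to 3 higher with shAnkrd35 in 3D against 2D, and 0 to 1 higher and 0 to 2 lower for the difference. Over all genes the same fits gave 3197 to 3861 higher and 3082 to 3922 lower in 2D, and 1506 to 2222 higher in 3D. They gave 4012 to 4412 higher with shAnkrd35 in 3D against 2D, and 1579 to 2852 higher and 1823 to 2897 lower for the difference.

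The share of Ogdhl without division by length was 6.97% in 3D shAnkrd35, 1.76% in 3D shGFP, 13.7% in 2D shAnkrd35 and 3.29% in 2D shGFP. Per longest transcript, an alternative chosen after seeing the data, it was 7.66%, 1.94%, 15.0% and 3.64% in the same order.

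Among the members, values that changed sign had not passed the threshold before, apart from Mdh2 in 3D against 2D with shAnkrd35 (0.074 after removal of the length and GC trend, block or not). The same removal gave 0.013 for Fh1 between hairpins in 3D, and 0.021 for Dlst and 0.174 for Mdh2 in the difference of effects (adjusted p = 0.00999, or 0.0181 with the block). Fh1 with shAnkrd35 in 3D against 2D was -0.078 with equal medians, -0.011 by quantiles and -0.041 with weights, Idh3a -0.010 with equal medians, and Ogdh -0.028 by quantiles in the difference of effects. Leaving out a library gave -0.019 to 0.052 for Fh1 there, -0.002 to 0.066 for Dld between hairpins in 3D, and -0.015 to 0.056 for Ogdh and -0.014 to 0.057 for Cs in the difference.

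The deviations of same-numbered libraries from their group means had correlations of -0.483 to 0.206 in 24 pairs, with 8 above 0.1. Of 16 libraries 6 were closest to their own number, so pairing by number was not detected. Replicate 1 of 2D shGFP and replicate 2 of 2D shAnkrd35, with different numbers, had 0.555. Libraries also had GC slopes that could hide a pairing, so pairing was not excluded. The replicate block gave 3499 genes higher and 3468 lower in 2D, and ended 1 call among the members, Ogdh in 3D against 2D with shAnkrd35. Depth limits Ankrd35, at 1 to 17 reads.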
